A study of Mus musculus with 6 samples.

Results

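The genes described here encode the chaperones, sensors and transcription factors of the heat shock response and of the unfolded protein response (UPR). They were taken by gene symbol from a list of 40. Of these, 34 had a probe with that symbol in the platform annotation and 33 were bright enough to be tested, by 47 probes. The whole array gave 8921 tested genes. The cells were bone marrow-derived dendritic cells (BMDCs) of 3 male C57BL/6 mice, grown for 10 days with 20 ng/ml GM-CSF and then held for 6 h in 5 ng/ml GM-CSF. The 3 control arrays had GM-CSF alone and the 3 IL-4 arrays had 20 ng/ml IL-4 as well, so that GM-CSF was common to both groups, and no gene had been altered in either. No source gives the age of the mice. Such a culture holds other myeloid cells besides dendritic cells.

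Proteins that enter the secretory pathway fold in the endoplasmic reticulum (ER) with the help of lectin chaperones, HSP70 and HSP90 family members and disulphide isomerases. When unfolded protein builds up there, the sensors IRE1, PERK and ATF6 switch on the UPR, which raises ER chaperones and the machinery that sends misfolded protein for degradation. In the cytosol and the nucleus the factor HSF1 does the same for heat shock proteins. Dendritic cells are known for a high activity of the IRE1 and XBP1 branch in some of their subsets.

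Levels are normalized log2 signals of the probe with the highest mean signal for each gene, and every difference is IL-4 minus control on that scale. Each array reads RNA of a mixed culture, so fewer cells of a type and less RNA per cell cannot be told apart. *Ccl24*, a chemokine gene that IL-4 is known to raise, was at 4.68 to 5.21 on the control arrays and at 9.75 to 10.91 on the IL-4 arrays. The dendritic cell genes *Zbtb46* (6.17 to 6.50) and *Cd74* (13.96 to 14.12) were measured on all 6 arrays. Of 9 dendritic cell genes measured, 8 had a positive difference with IL-4 (47.2% of all tested genes did), with a median of 0.063. *Batf3*, a factor of cross-presenting dendritic cells, was higher by 0.91 (limma adjusted p = 0.141, and 0.0104 with the block). Of 9 macrophage genes, 4 had a positive and 5 a negative difference, from -0.59 for *Fcgr1* to 0.87 for *Mrc1*. *Mrc1* had a limma adjusted p = 0.940, and 0.0232 with the block. Whether the make-up of the culture has a part in the differences below was not tested. Replicate 2 stood apart in both groups: *Ngp*, a gene of neutrophil granules, read 11.67 and 11.64 there, against 7.96 to 9.26 on the other arrays, and 8 of 9 neutrophil genes were higher on both replicate 2 arrays than on the other 4, while 8 of 9 macrophage genes were lower. Of 4 mast cell and basophil genes 3 were higher there, among them *Cpa3*, a mast cell protease gene, at 11.78 and 11.65 against 6.20 to 8.76. For the 33 tested genes and *Atf5*, calls that differ without replicate 2 are given both ways. The median raw signal of an array lay between 83.8 and 121, and 14934 to 17185 probes were detected on each. With 3 arrays a group, precision is limited by their number.

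The stress response genes differed little between the groups, with *Atf3* as the 1 call, which rests on the pairing of arrays. Without pairing, none of the 33 passed limma's test at an adjusted p under 0.05, where 0.123% of all tested genes did so. By unadjusted p under 0.05, 6 of them lay higher and 0 lower, against 4.26% and 4.13% of all genes. With the replicate number as a block, which takes arrays of the same number as those of the same mouse, 1 was higher and 0 were lower, against 1.65% and 1.01% of all genes. No gene of the 33 differed by more than 2-fold, except that *Atf3* did so with median scaling (1.03) and without IL-4 replicate 2 (1.14). The 95% confidence interval of the difference lay inside a 2-fold change either way for 31 of the 33 and for 8086 of the 8921 tested genes. The exceptions among the 33 were *Atf3* (0.14 to 1.48) and *Calr* (0.15 to 1.07). The 33 differences ran from -0.45 (*Dnaja1*) to 0.81 (*Atf3*), with a median of 0.12 against -0.015 over all tested genes. A positive difference was seen for 23 of the 33 genes, and for 47.2% of all genes. In the second replicate pair the median was -0.012, against 0.17 in the first and 0.21 in the third, while over all genes it was -0.026, -0.0029 and -0.011 in the same order of pairs 2, 1 and 3. When the arrays were scaled to 1 median instead of quantile normalized, the median of all genes moved to 0.15 and that of the 33 genes to 0.34, with 30 of the 33 and 74.9% of all genes above 0.

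**Figure D1:**
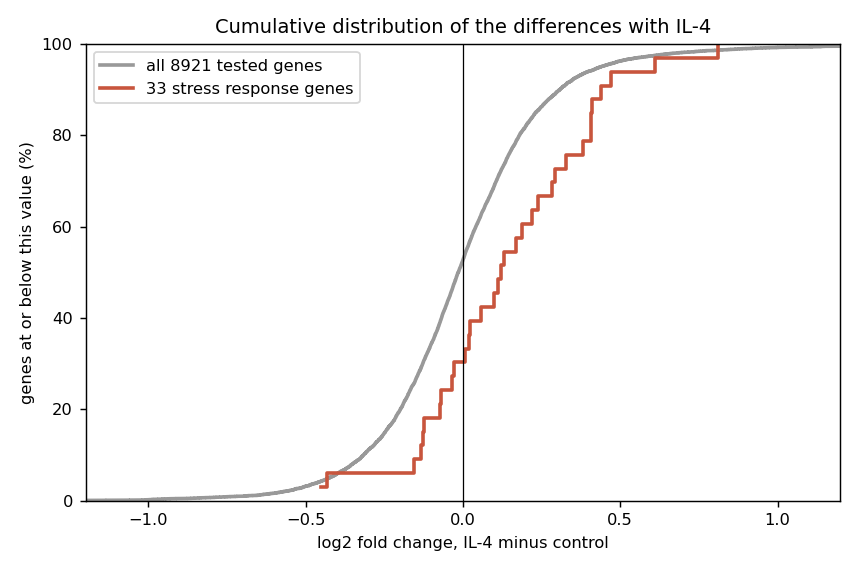
Cumulative share of genes (y axis, percent) at or below each log2 fold change, IL-4 minus control (x axis), for all 8921 tested genes (grey) and the 33 stress response genes (red). The red curve lies to the right of the grey one over most of its course, with medians of 0.12 and -0.015, and no red step goes past a 2-fold change.

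Without a fit, the IL-4 arrays lay above all control arrays for 6 of the 33 genes (*Calr*, *Pdia4*, *Hspa5*, *Creld2*, *Hsph1* and *Hspe1*) and below them for 0. Over all genes this was so for 6.29% and 7.08%. The difference was positive in each of the 3 replicate pairs for 9 genes (the same 6 with *Atf3*, *Hspd1* and *Hspa9*) and negative in each for *Xbp1* and *Dnajb9*, against 16.4% and 20% of all genes. At an unadjusted p under 0.05 with the block, 8 were higher and 2 lower, against 7.2% and 7.91% of all genes. These counts describe the list and are no test of it.

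**Figure D2:**
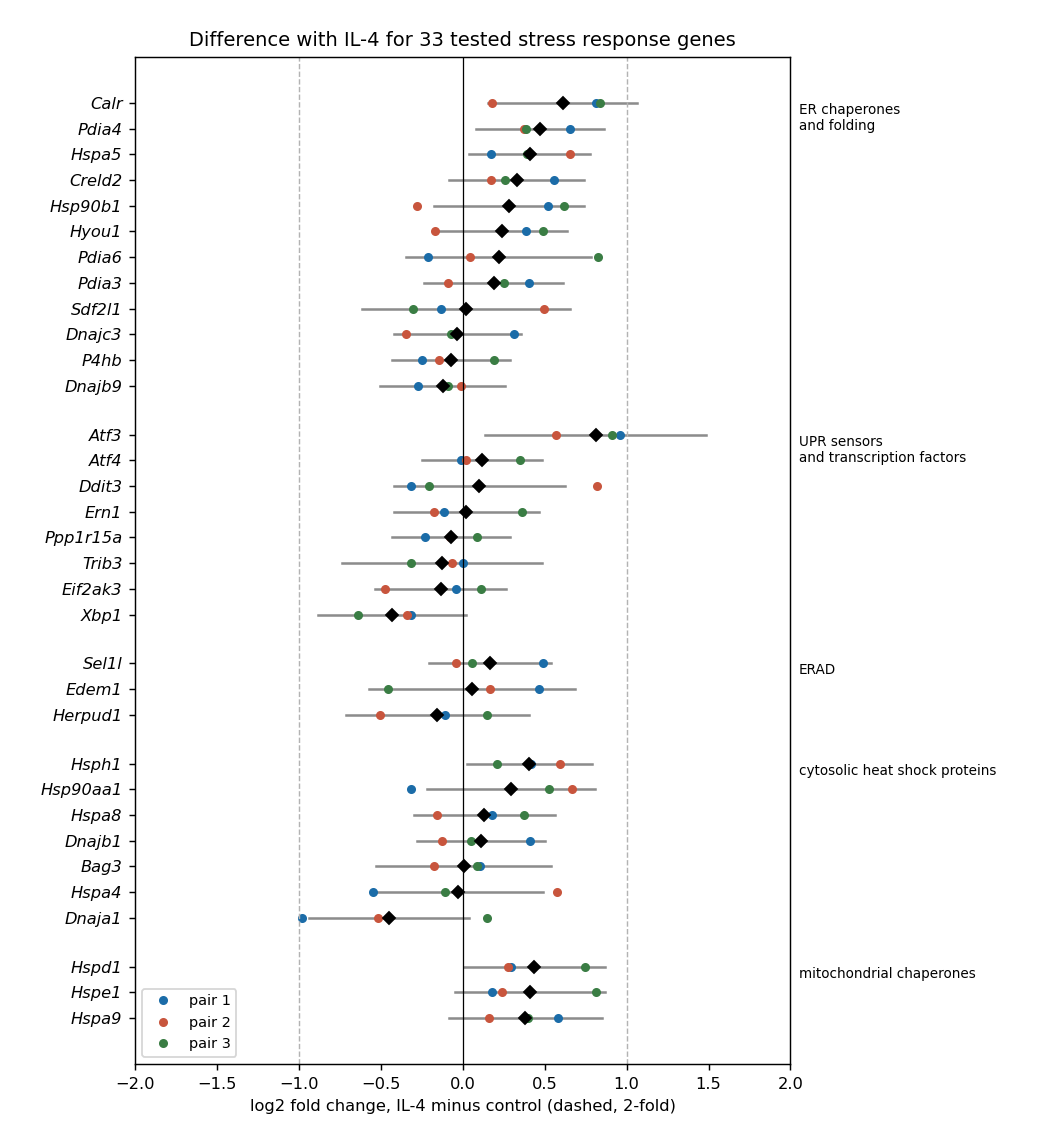
Log2 fold change, IL-4 minus control (x axis), of the 33 tested genes, grouped by role (y axis). Black diamonds are the differences of the group means, grey lines their 95% confidence intervals from limma without the block, and coloured points the differences within the 3 replicate pairs. Most intervals cross 0, and only those of *Atf3* and *Calr* reach past the dashed lines at 2-fold.

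*Atf3* encodes a stress-induced transcription factor of the ATF/CREB family, which PERK signalling, Toll-like receptors and other stimuli raise. It was at 7.88, 7.21 and 7.80 on control arrays 1, 2 and 3 and at 8.84, 7.77 and 8.71 on the IL-4 arrays in the same order. Replicate 2 was lowest in both groups, and its IL-4 value lay below 2 of the control values, so that the groups overlapped, yet each IL-4 array was above the control array of its own number, by 0.96, 0.57 and 0.91. The means were 7.63 ± 0.37 and 8.44 ± 0.58 (SD, n = 3 each), a level 1.75-fold higher. Without the block, the difference of 0.81 had a standard error of 0.30 and an adjusted p = 0.574 from limma. With the block the standard error was 0.16 and the adjusted p = 0.0170. Without replicate pair 2 the blocked difference was 0.93 (adjusted p = 0.00767), and without pair 3 it was 0.76 and no longer passed (adjusted p = 0.0968). In the authors' normalized values it was 0.70, and the blocked fit gave an adjusted p = 0.161. The call thus holds under the block, but not in the authors' values or without the third pair. In the authors' values no probe of the whole array passed, with or without the block. That setting therefore cannot decide about *Atf3* in particular. The 250 bases before the RefSeq start of *Atf3* are shown because ATF4 is known to induce this gene. Capitals mark the match to the ATF4 composite motif TGATGNAAN, searched on both strands and found here on the opposite one. Of 27025 genes with a promoter in the table, 4.5% hold such a match, as do 3 of the 32 listed genes found there (*Atf3*, *Trib3* and *Herpud1*). The searched 300 bases run from 250 before to 50 after the start.
Atf3, GRCm38.p6, chr1:191183334-191183583, minus strand: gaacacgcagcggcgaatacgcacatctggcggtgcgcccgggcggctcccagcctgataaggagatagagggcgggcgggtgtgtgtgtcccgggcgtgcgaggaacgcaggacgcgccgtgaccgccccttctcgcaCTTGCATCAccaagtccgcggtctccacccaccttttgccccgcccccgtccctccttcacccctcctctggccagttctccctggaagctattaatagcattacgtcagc

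No other UPR sensor or factor passed the test. Of the 8 tested genes of this kind, *Atf3* included, 4 had a positive and 4 a negative difference, with a median of -0.025. *Xbp1*, which encodes the factor that IRE1 activates by splicing its mRNA, was at 11.78, 12.16 and 11.85 in control and at 11.46, 11.82 and 11.22 with IL-4. Each IL-4 array was below the control array of its number, by 0.32, 0.34 and 0.64, while IL-4 replicate 2 lay above the lowest control value. The difference of -0.43 had a standard error of 0.20 and did not pass (limma adjusted p = 0.719, and 0.226 with the block). No source says whether the probe tells spliced from unspliced *Xbp1*. *Ern1*, which encodes IRE1, gave 0.021, with an interval from -0.42 to 0.47. *Eif2ak3*, which encodes PERK, gave -0.13, but its probe was detected on 2 control arrays and 1 IL-4 array. *Atf4*, the factor that PERK signalling raises through translation, gave 0.12 and, by a dimmer probe, 0.083. *Ddit3*, which encodes the pro-apoptotic factor CHOP, was at 7.73, 7.31 and 7.59 in control and at 7.41, 8.13 and 7.39 with IL-4. Here IL-4 replicate 2 was the highest of the 6 arrays and the pairs ran in opposite directions (-0.31, 0.82 and -0.21), with a mean difference of 0.10. *Ppp1r15a*, which encodes the phosphatase subunit GADD34 that restores translation, gave -0.072. *Trib3*, a pseudokinase gene that CHOP and ATF4 induce, gave -0.13 by its brighter probe and 0.33 by the dimmer one, which was detected on 2 control arrays, so its direction depends on the probe.

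**Figure D3:**
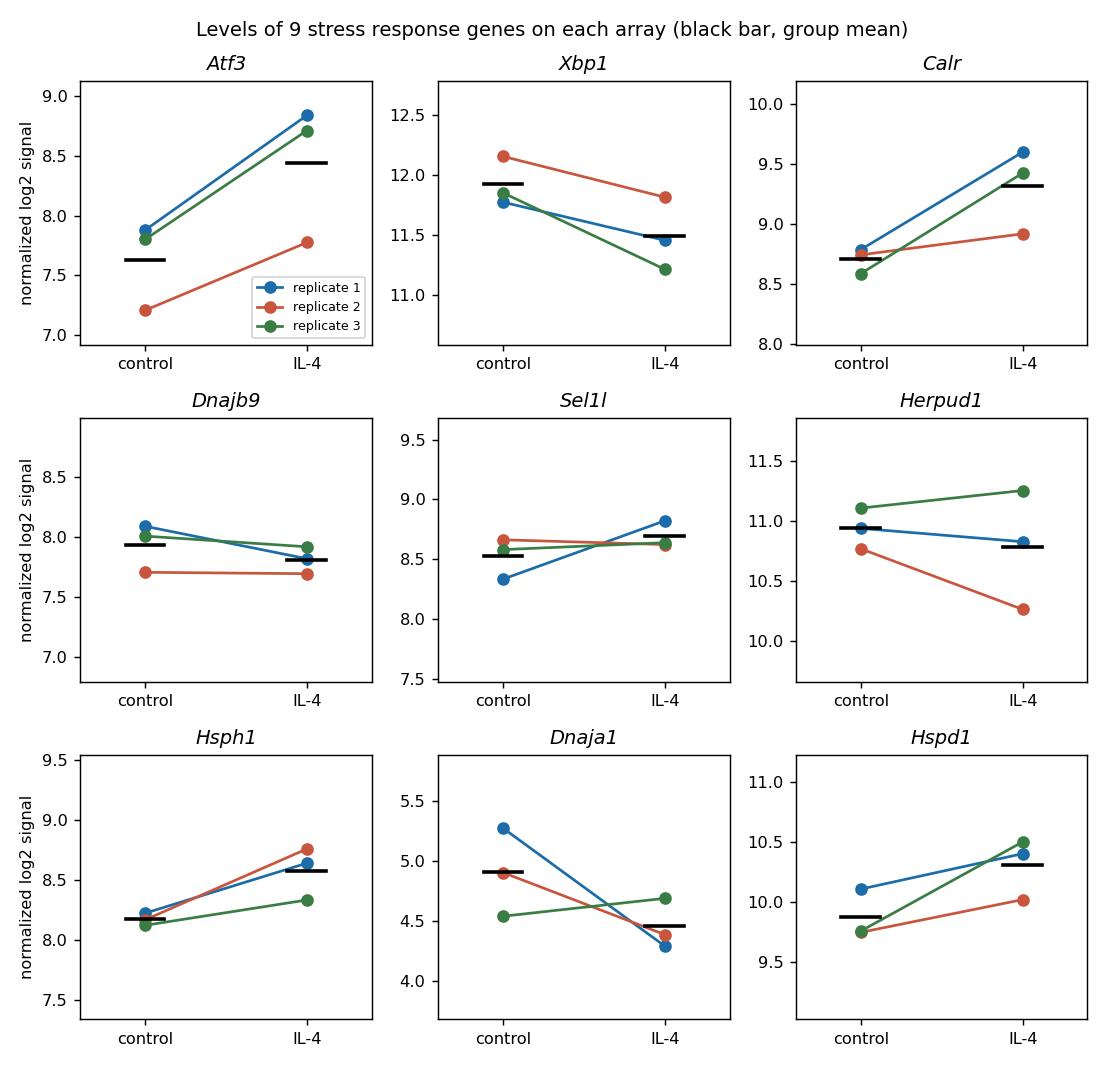
Normalized log2 signal (y axis) of 9 stress response genes in control and IL-4 arrays, with 1 colour per replicate, lines joining arrays of the same number and black bars at the group means. All panels span the same number of log2 units. *Atf3* was higher with IL-4 in each pair and *Xbp1* lower in each pair, and replicate 2 was lowest for *Atf3* in both groups.

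Among ER chaperones and folding enzymes, 9 of 12 tested genes had a positive difference (median 0.23), and none passed the test. *Calr*, which encodes the lectin chaperone and calcium store calreticulin, had the largest. It was at 8.79, 8.74 and 8.59 in control and at 9.60, 8.92 and 9.42 with IL-4, so all IL-4 arrays lay above all control arrays, replicate 2 by the smallest margin. The means were 8.70 ± 0.11 and 9.31 ± 0.35 (SD, n = 3 each), a level 1.53-fold higher, and the difference of 0.61 had a standard error of 0.20 (limma adjusted p = 0.495, and 0.114 with the block). Without replicate pair 2 the blocked difference was 0.83 and passed (adjusted p = 0.0152). *Pdia4*, a disulphide isomerase gene, was at 8.29 to 8.55 in control and at 8.68 to 9.11 with IL-4, a difference of 0.47 (limma adjusted p = 0.574, and 0.175 with the block). *Hspa5* encodes BiP, the HSP70 of the ER and the classical readout of the UPR. Its 1 tested probe was dim, at 4.92 to 5.28 in control and 5.45 to 5.57 with IL-4, when the lowest detected value of an array was between 4.63 and 4.79. Its difference of 0.41 (limma adjusted p = 0.641, and 0.275 with the block) shrank to 0.13 without background correction and to 0.098 in the authors' values. *Creld2*, an ER stress-inducible isomerase gene, gave 0.33 and 0.40 by its 2 probes, and by both probes all IL-4 arrays lay above all control arrays.

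By their brightest probes, the other ER chaperone genes overlapped between the groups. *Hsp90b1*, which encodes the ER HSP90 called GRP94, gave 0.28, with 0.52, -0.28 and 0.62 in the 3 pairs, and *Hyou1*, the large ER HSP70 relative, gave 0.24, with -0.17 in pair 2. This probe was dim, and its difference was 0.071 without background correction and 0.043 in the authors' values. *Pdia3*, the isomerase that works with calreticulin, gave 0.19. *Pdia6*, another isomerase gene, gave 0.22, and 0.086 without background correction and 0.080 in the authors' values. By its dimmer probe the difference was 0.13, and 0.045 without background correction and 0.030 in the authors' values. The lowest IL-4 value of that probe (5.418) was just above its highest control value (5.405). *P4hb*, the classical protein disulphide isomerase, gave -0.069 and *Dnajc3*, a J-domain cochaperone of BiP, -0.035. *Sdf2l1*, a partner of ER J-domain proteins, gave 0.019, and its IL-4 replicate 2 value (9.47) was above the 5 other arrays (8.30 to 8.98). *Dnajb9*, which encodes the J-domain protein ERdj4 and is a known target of XBP1, was at 8.09, 7.70 and 8.01 in control and at 7.82, 7.69 and 7.92 with IL-4. This is a difference of -0.12, negative in each pair but only by 0.012 in replicate 2 (-0.012), and its other probe gave -0.23.

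The promoters of these genes are shown because the ER stress response element (ERSE), CCAAT and CCACG with 9 bases between them, is the site at which ATF6 with NF-Y, or XBP1, acts on ER chaperone genes. Searched on both strands of the 300 bases around each RefSeq start, this exact form was found in 37 of 27025 genes (0.137%) and in 7 of the 32 listed genes in the table. The element is known from ER chaperone genes, so its share among the listed genes is no test of them. Of the 7, *Canx*, which encodes the membrane-bound partner of calreticulin, had no annotated probe. The 6 measured ones had differences from -0.035 (*Dnajc3*) to 0.61 (*Calr*), with a median of 0.31, and 5 were positive. Of all 12 tested ER chaperone and folding genes 9 were positive, with a median of 0.23, and of all tested genes 47.2% were. *Hspa5* and *Pdia6* were dim, with differences of 0.098 and 0.080 in the authors' values. Whether the ERSE has a part in these differences was not tested. Each site is given with 6 bases on either side, 5′ to 3′ along the gene (GRCm38.p6), with the match in capitals. In *Calr* and *Creld2* the element lies on the opposite strand and so reads as its reverse complement. *Hsp90b1* holds a second match nearer to its start, which is not shown.
Hspa5, chr2:34772019-34772049, plus strand: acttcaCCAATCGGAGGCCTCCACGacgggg
Hsp90b1, chr10:86705632-86705662, minus strand: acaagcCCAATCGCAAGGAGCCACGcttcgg
Calr, chr8:84847069-84847099, minus strand: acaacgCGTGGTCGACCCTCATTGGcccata
Pdia6, chr12:17266485-17266515, plus strand: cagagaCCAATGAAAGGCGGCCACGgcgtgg
Dnajc3, chr14:118937821-118937851, plus strand: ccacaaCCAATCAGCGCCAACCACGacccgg
Creld2, chr15:88819514-88819544, plus strand: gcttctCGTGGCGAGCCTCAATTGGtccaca
Canx, chr11:50325794-50325824, minus strand: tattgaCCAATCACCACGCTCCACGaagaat
The upstream 250 bases of *Calr*, the ER chaperone gene with the largest difference, are given in full, with the same match in capitals.
Calr, GRCm38.p6, chr8:84846932-84847181, minus strand: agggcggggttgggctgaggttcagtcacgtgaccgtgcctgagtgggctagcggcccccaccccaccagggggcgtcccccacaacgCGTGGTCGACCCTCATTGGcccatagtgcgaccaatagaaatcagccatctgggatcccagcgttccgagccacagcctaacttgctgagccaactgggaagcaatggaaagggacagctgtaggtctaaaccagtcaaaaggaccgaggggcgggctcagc

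The 3 genes of ER-associated degradation (ERAD), the route that returns misfolded protein to the cytosol, did not share a direction. *Sel1l*, which encodes the adaptor of the ERAD ubiquitin ligase, was at 8.34, 8.66 and 8.58 in control and at 8.82, 8.62 and 8.64 with IL-4, a difference of 0.17 (limma adjusted p = 0.944) that came mainly from replicate 1. Its dimmer probes gave 0.068 and 0.13. *Herpud1*, an ER membrane component of that ligase complex, was at 10.94, 10.77 and 11.11 in control and at 10.83, 10.26 and 11.26 with IL-4. Replicate 2 was lowest in both groups, and the difference was -0.16 by this probe and 0.12 by the other (limma adjusted p = 0.973 and 0.982). *Herpud1* was the 1 listed gene with the related element ERSE-II (ATTGG and CCACG with 1 base between them, on either strand), which 0.0444% of genes in the promoter table hold. *Edem1*, which encodes the lectin that extracts misfolded glycoproteins, gave 0.058, with 0.47, 0.17 and -0.46 in the 3 pairs.
Herpud1, GRCm38.p6, chr8:94386371-94386393, plus strand: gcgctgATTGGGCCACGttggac

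Of the 7 tested cytosolic heat shock genes, 5 had a positive difference (median 0.11), and none passed the test. *Hsph1* encodes HSP110, which exchanges the nucleotide of HSP70. It was at 8.22, 8.17 and 8.12 in control and at 8.64, 8.76 and 8.33 with IL-4, so the groups did not overlap, and replicate 2 had the highest IL-4 value. The means were 8.17 ± 0.05 and 8.58 ± 0.22 (SD, n = 3 each), a difference of 0.41 with a standard error of 0.17 (limma adjusted p = 0.661, and 0.261 with the block). *Hsp90aa1*, the stress-inducible cytosolic HSP90 gene, gave 0.29 by its brighter probe, by which the groups overlapped. This was 0.22 without background correction and 0.24 in the authors' values. Its other probe was dim, at a mean level of 4.89, and gave 0.28, with no overlap of the groups. That value shrank to 0.078 without background correction and to 0.033 in the authors' values. *Hspa8*, the constitutive HSP70 gene, gave 0.13, 0.20 and 0.55 by its 3 probes, none of which passed. Whether these probes also read its processed copies was not tested. *Dnajb1*, the J-domain cochaperone gene that HSF1 is known to induce, gave 0.11, *Hspa4*, another HSP110 relative, gave -0.027 and *Bag3*, a nucleotide exchange factor gene of selective autophagy, 0.0053. *Dnaja1*, a J-domain cochaperone gene, was at 5.27, 4.90 and 4.54 in control and at 4.29, 4.38 and 4.69 with IL-4. Its probe was detected on 2 control arrays and 1 IL-4 array, the third pair ran against the others, and the difference of -0.45 (limma adjusted p = 0.730, and 0.351 with the block) became -0.055 in the authors' values. The heat-inducible HSP70 gene *Hspa1a* was not tested: its 2 probes were detected on 1 and 2 of the 6 arrays, with raw signals of 85.4 to 126. *Hspa1b*, *Hsp90ab1*, *Hsf1*, *Atf6*, *Manf* and *Canx* had no probe with their symbol in the annotation and were not analysed here.

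All 3 mitochondrial chaperone genes were higher with IL-4 in each of the 3 pairs, though none passed the test. *Hspd1* encodes HSP60, the barrel-shaped chaperonin of the mitochondrial matrix, and *Hspe1* encodes HSP10, the lid of that barrel. *Hspd1* was at 10.11, 9.75 and 9.76 in control and at 10.40, 10.02 and 10.50 with IL-4. Control replicate 1 lay above IL-4 replicate 2, and the pairs differed by 0.30, 0.27 and 0.74. The means were 9.87 ± 0.21 and 10.31 ± 0.25 (SD, n = 3 each), a difference of 0.44 with a standard error of 0.19 (limma adjusted p = 0.689, and 0.244 with the block), and its dimmer probe gave 0.33. *Hspe1* was at 8.70 to 8.78 in control and at 8.88, 9.01 and 9.58 with IL-4, so that the groups did not overlap and replicate 3 had the highest value (difference 0.41, limma adjusted p = 0.753, and 0.316 with the block). *Hspa9*, which encodes the mitochondrial HSP70 mortalin, gave 0.38 by both probes, with 0.58, 0.16 and 0.40 in the pairs of the brighter one (adjusted p = 0.803, and 0.310 with the block). In the authors' values the 3 differences were 0.46, 0.40 and 0.40.

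*Hspd1* and *Hspe1* are neighbours that are read away from each other, and their shared promoter is shown. By the RefSeq table *Hspe1* starts at chr1:55088148 on the plus strand and *Hspd1* at chr1:55087932 on the minus strand, with a further *Hspd1* start at 55088243. The heat shock element at which HSF1 binds was searched on both strands as GAA, TTC and GAA with 2 bases between neighbours, and 0.662% of the 27025 genes and 3 of the 32 listed genes (*Hspd1*, *Hspe1* and *Hsph1*) hold it. The 3 differences were 0.41 to 0.44, but *Hspd1* and *Hspe1* hold the same stretch, so these are not 3 separate sites. Whether the element has a part in the differences was not tested. In *Hspe1* a match on each strand overlaps the other, and the capitals mark both, while the match of *Hsph1* lies after its start and is not printed. The search did not find the UPR element TGACGTGG in any of the 32 listed genes, against 0.714% of all. A match to these letters is no evidence that a factor binds there.
Hspe1, GRCm38.p6, chr1:55087898-55088147, plus strand: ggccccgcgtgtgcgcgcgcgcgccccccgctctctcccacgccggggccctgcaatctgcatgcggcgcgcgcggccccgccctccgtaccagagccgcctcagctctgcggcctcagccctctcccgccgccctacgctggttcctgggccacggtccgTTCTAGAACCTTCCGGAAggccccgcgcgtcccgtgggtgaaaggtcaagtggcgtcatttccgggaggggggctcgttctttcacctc

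Several genes differed more by replicate number than by treatment. Both replicate 2 arrays lay above the other 4 for *Sdf2l1*, *Trib3* and *Edem1*, and below them for *Atf3*, *Bag3*, *Herpud1*, *Pdia6*, *Dnajb9* and *Ppp1r15a*. This is 3 and 6 of the 33 genes, against 10.3% and 12.1% of all tested genes. For *Atf3* the mean of replicate 2 was 0.81 below that of the other arrays, the same size as its difference with IL-4. It was 0.58 below for *Bag3* and 0.52 below for *Herpud1*, against differences with IL-4 of 0.0053 and -0.16. For *Sdf2l1* and *Trib3* it was 0.66 above. Over the 33 genes the median size of the replicate 2 shift was 0.13 and the median size of the difference with IL-4 was 0.17, against 0.18 and 0.15 over all genes. The neutrophil and macrophage genes shifted in the same arrays, by median sizes of 2.21 and 1.04 in 9 genes each. The median size was 2.97 in 4 mast cell and basophil genes and 2.03 in 3 erythroid and megakaryocyte genes. Their part in these shifts was not tested.

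**Figure D4:**
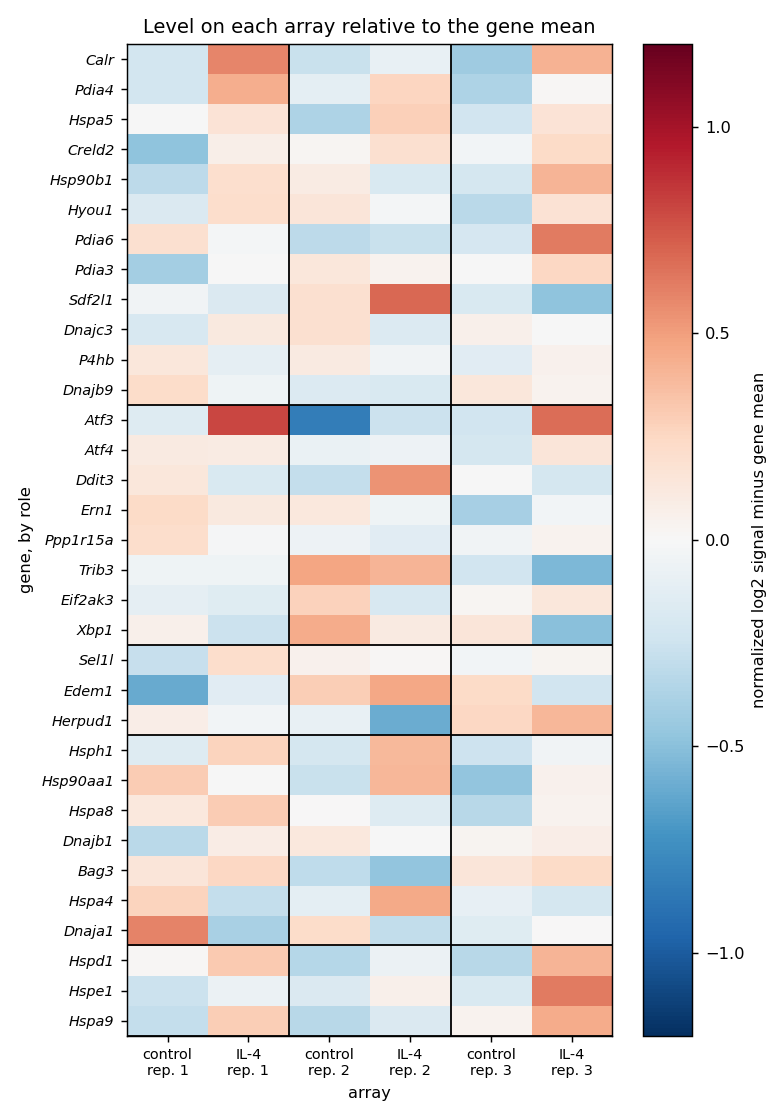
Level of each of the 33 genes on each array, as the normalized log2 signal minus the gene's mean over the 6 arrays (colour, red above and blue below), with arrays ordered by replicate (x axis) and genes grouped by role (y axis). Replicate 2 is blue in both columns for *Atf3*, *Herpud1* and *Bag3*, and red in both for *Trib3* and *Edem1*.

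Other genes of the same pathways were read from lists made in the same way as the 40. Of the integrated stress response, the shared pathway of PERK and its sister kinases, 24 kinases and ATF4 targets were tested. With the block 1 was higher and 0 lower, against 1.65% and 1.01% of all genes. Without it 0 were called, against 0.123% of all genes. By unadjusted p under 0.05 without the block, 2 were higher and 0 lower, against 4.26% and 4.13% of all genes. With the block 2 were higher and 3 lower by that threshold, against 7.2% and 7.91%. The list's median was -0.019. The 1 gene was *Atf5*, which encodes a relative of ATF4 that is translated under stress. It was at 9.11, 9.35 and 8.51 in control and at 10.01, 10.24 and 9.49 with IL-4. All IL-4 arrays lay above all control arrays, and the 3 pairs differed by 0.91, 0.88 and 0.98. The difference of 0.92 had a standard error of 0.26 (limma adjusted p = 0.366) and of 0.15 with the block (adjusted p = 0.00661). In the authors' values it was 0.90 and did not pass (limma adjusted p = 0.405, and 0.0877 with the block). No probe of the whole array passed there in either fit. Known ATF4 targets in that list, named after their values were seen, ran apart: *Chac1*, a glutathione-degrading enzyme gene, gave 0.60, and *Ddit4*, an inhibitor gene of mTORC1, gave -0.64 (limma adjusted p = 0.678 and 0.774, and 0.153 and 0.0969 with the block). The difference of *Chac1* was 0.22 without background correction and 0.21 in the authors' values, and that of *Ddit4* was -0.38 and -0.44. *Asns*, the asparagine synthetase gene, gave 0.22.

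In the remaining lists no gene was called in either fit. Of all tested genes 0.123% were called without the block. With it 1.65% were called higher and 1.01% lower. Their medians were 0.065 for 16 other ERAD and glycoprotein quality control genes, 0.043 for 23 other genes of ER folding, oxidation and translocation, and 0.0087 for 8 relatives and processing factors of ATF6. They were -0.067 for 21 other cytosolic chaperones and cochaperones and 0.0032 for 12 other mitochondrial chaperones and proteases. At an unadjusted p under 0.05 without the block, 0 to 2 genes of each of these lists were higher and 0 to 1 lower, against 4.26% and 4.13% of all genes. Among them, named after their values were seen, were *Stip1*, which encodes the adaptor between HSP70 and HSP90 (0.47), *Ssr1*, of the translocon-associated complex (0.38), *Edem2*, a relative of *Edem1* (-0.53), and *Dnajb2*, a J-domain protein gene (-0.54). The rest were *Fkbp5* (0.42, and 0.24 in the authors' values) and the dim *Hscb* (-0.46, and -0.079 in the authors' values).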

How the data were processed

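RNA of 3 control and 3 IL-4 BMDC cultures was read on Illumina MouseWG-6 arrays. The authors deposited raw bead signal intensity and a detection p-value for 45281 probes, and log2 values of 19293 probes made with lumi (variance stabilization, then robust splines; version not stated). Intensities were background-corrected and quantile normalized with neqc (offset 16) of limma 3.58.1 in R 4.3.3. The 16071 probes with a detection p-value below 0.05 on 3 or more arrays were fitted with lmFit and eBayes and adjusted by Benjamini-Hochberg over all of them, two-sided. Symbols came from the platform annotation, which covers probes of the authors' log2 table and leaves 2471 tested probes unnamed. Figures were drawn with matplotlib 3.10.9.

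Whether the same number means the same mouse is not stated. Deviations from the group means correlated by 0.29, 0.55 and 0.62 between arrays of one number and by -0.55 to 0.096 between others, so the replicate block was set beside the unpaired fit, which left 4 residual degrees of freedom against 2. Deviations within a group cancel out, so the negative values between other numbers follow in part from the positive ones and are no separate evidence of pairing. The labels do not tie an array to a mouse, so p-values measure the spread between these cultures.

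The genes and lists were chosen with earlier results of these data known. Levels on each array are given for called genes and for the largest rise and fall of each role group. Beyond this rule, values for *Pdia4*, *Pdia6*, *Hspa5*, *Hspe1*, *Sdf2l1* and *Ddit3* on single arrays or as ranges were added after they were seen. The fits were tested on simulated data. Alternatives were other normalizations, background corrections, filters, probes and left-out arrays.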

Additional observations from a re-analysis of the deposited data

How the results depend on the processing

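The unpaired fit called 0 of the stress response genes under every alternative without a block, among them the authors' values, no background correction and each left-out array. With the replicate block 1 was higher (*Atf3*), also without background correction, and 0 in the authors' values, both of these chosen after seeing the data. When arrays or pairs were left out, 0 to 2 were higher and the median of the 33 differences was 0.11 to 0.18. It was 0.34 with median scaling, 0.086 without background correction and 0.087 in the authors' values. Over the whole array, 18 probes were called, 365 with the block, 0 in the authors' values with or without it, 1 without a filter on dim probes, 1 with median scaling, 236 with the block and no background correction, and 1 to 842 with arrays or pairs left out. The blocked fit gave 348 without replicate 1, 842 without replicate 2 and 266 without replicate 3, and single arrays left out gave 1 (control or IL-4 replicate 1) to 67 (IL-4 replicate 2). The fit of the authors' values, with 0 called, covered the 15888 tested probes found among them. The paper reports significantly altered genes, among them *Ccl24*, from its own linear-model fit. Beside *Atf3*, the block changed the call of *Atf5*, and of no other gene in the stress response lists.

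Of 34 single genes, 16 changed direction under some alternative, *Dnajb9* only with median scaling. That scaling raised the median of all genes from -0.015 to 0.15, a shift shared by the genes whose sign it turned. These were *P4hb* (0.18), *Dnajb9* (0.084), *Dnajc3* (0.17), *Trib3* (0.040), *Ppp1r15a* (0.14), *Herpud1* (0.082) and *Hspa4* (0.17). In the authors' values *Ern1* was at -0.00035 and *Edem1* at -0.00094, with and without the block, and by its other probe *Trib3* was at 0.33. With arrays or pairs left out, the differences ran from -0.084 to 0.43 for *Pdia6*, from -0.20 to 0.020 for *P4hb*, from -0.21 to 0.12 for *Dnajc3*, from -0.32 to 0.27 for *Sdf2l1* and from -0.17 to 0.14 for *Ern1*. They ran from -0.26 to 0.037 for *Eif2ak3*, from -0.26 to 0.31 for *Ddit3*, from -0.36 to 0.11 for *Trib3*, from -0.15 to 0.016 for *Ppp1r15a* and from -0.39 to 0.10 for *Herpud1*. They ran from -0.23 to 0.32 for *Edem1*, from -0.00041 to 0.28 for *Hspa8*, from -0.040 to 0.23 for *Dnajb1*, from -0.33 to 0.23 for *Hspa4* and from -0.14 to 0.24 for *Bag3*. With single arrays left out, the ranges were -0.039 to 0.41 for *Pdia6*, up to 0.050 for *Dnajc3*, down to -0.12 for *Ppp1r15a*, up to 0.22 for *Edem1* and -0.024 to 0.20 for *Dnajb1*. In the blocked fit *Ppp1r15a* was at 0.0056 and *Bag3* at -0.044 without replicate 1, *Sdf2l1* at -0.22 and *Herpud1* at 0.018 without replicate 2, and *Hspa4* at 0.012 and *Bag3* at -0.035 without replicate 3. The cause was not tested. Signal close to background limits *Hspa5*, *Hyou1*, *Pdia6*, *Eif2ak3* and *Dnaja1*, at 0.13, 0.071, 0.086, -0.038 and -0.15 without background correction.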

Other observations

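Targets of NRF2, the factor that answers oxidative stress, were read beside the chaperones, and none of the 7 measured genes passed limma's test in either fit. All 7 had a negative difference, while 47.2% of all tested genes had a positive one. The median was -0.39 against -0.015 over all tested genes, and 5 were lower in each of the 3 replicate pairs (20% of all tested genes were). At an unadjusted p under 0.05, 2 were lower without the block and 5 with it, against 4.13% and 7.91% of all genes. *Srxn1*, which encodes sulfiredoxin, was at 9.10, 8.90 and 8.89 in control and at 8.65, 8.59 and 8.61 with IL-4, so the groups did not overlap (difference -0.35, limma adjusted p = 0.689, and 0.342 with the block). *Hmox1*, the haem oxygenase gene, was at 9.42, 8.06 and 8.64 in control and at 8.84, 8.03 and 7.90 with IL-4. Its groups overlapped, and replicate 2 hardly differed. *Slc48a1*, a haem transporter gene, gave -0.47, and its groups overlapped. *Nqo1*, the quinone reductase gene, gave -0.39, with -0.046 in pair 2, and -0.26 in the authors' values. Its groups barely separated, with a lowest control value of 7.021 and a highest IL-4 value of 7.019. The smallest differences were those of *Gclm* (-0.13) and *Txnrd1* (-0.074). This list was chosen with earlier results of these data known, and the genes named here were picked after their values were seen. The list's median was -0.081 in pair 2, against -0.49 and -0.62 in pairs 1 and 3.

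The subunits of TRiC, the chaperonin of the cytosol, and of its partner prefoldin had a median difference of 0.18 over 12 measured genes, of which 8 were positive (47.2% of all tested genes were) and none passed in either fit. At an unadjusted p under 0.05, 0 were higher without the block and 2 with it, against 4.26% and 7.2% of all genes. *Cct6a* gave 0.47 and *Cct5* 0.42, the latter 0.078 in the authors' values, and both were negative in pair 2 (-0.021 and -0.092). The 4 negative genes were *Pfdn5* (-0.33), *Cct7* (-0.30, and -0.037 in the authors' values), *Cct2* (-0.076) and *Cct4* (-0.065). For *Pfdn5* all IL-4 arrays lay below all control arrays. Both rises were named after their values were seen.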
